A study of Caenorhabditis elegans with 5 samples.

Results

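The F-box A genes are one of the largest gene families of Caenorhabditis elegans, and the 204 of them described here were all features in the count files whose symbol is fbxa followed by a number, of 19176 features in all. They were taken by symbol, with no threshold on a measured value. RNA had been sequenced from 3 libraries of Day 6 adults and 2 libraries of L4 larvae, the last larval stage. All animals were wild type N2 grown at 20° on Escherichia coli HT115 with L4440, the empty vector of feeding-based RNAi, on plates with 2 mM IPTG and carbenicillin. Day 6 adults were on their 6th day of adulthood and had been moved at L4 to plates that also held FUdR at 25 µg/mL, which blocks DNA synthesis and so reproduction, so age and FUdR cannot be told apart. Each library was a pool of whole worms, described as an independent biological replicate, so fewer cells of a type and less RNA per cell cannot be told apart.

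An F-box is a short protein motif that binds SKP1-related proteins. Through them an F-box protein joins a cullin, a RING protein and an E2 enzyme in an SCF ubiquitin ligase, and the rest of the F-box protein holds the substrate that is to be ubiquitylated. In C. elegans the F-box A proteins typically pair the F-box with an FTH domain (also called DUF38), which is taken to be the substrate-binding part. The family has expanded and diverged quickly in nematodes, and most of its members have no known substrate. Members with a described function include fbxa-75 and fbxa-158, which act with the cullin CUL-6 in a ligase of the intracellular pathogen response.

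The annotation carried by the files gave both the F-box and the FTH domain for 129 of the 204 members, the FTH domain alone for 30, the F-box alone for 8 and neither for 37. The WBcel235 annotation called 160 of them protein coding and 44 pseudogenes. They lay mostly on chromosome V (83 members) and chromosome III (70), with 18 on II, 15 on X, 13 on I and 5 on IV. Their summed exons had a median length of 1118 bases (451 to 5668).

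The libraries held 29247719, 13043617 and 13419940 counts at Day 6 and 14517986 and 9368922 at L4. The pair of L4 libraries was much less alike than any pair of Day 6 libraries. Across all tested genes, Pearson's r of log2 CPM was 0.96 to 0.97 between Day 6 libraries and 0.79 between the 2 L4 libraries, and across the tested F-box A genes it was 0.86 to 0.93 and 0.54. These are correlations over genes, which are not independent replicates. The normalization factor of L4 replicate 1 was 0.294, against 1.03 to 1.63 in the other 4 libraries, and only 12442 features had a count in it, against 14706 to 16634. As a check of the labelled stages, the adult-stage genes vit-2, vit-5, vit-6 and col-19 summed to 68603 to 155283 CPM at Day 6 and 1126 to 2914 CPM at L4. Of these 4 genes, 1 rose in the edgeR test described below and 3 were not called. CPM (counts scaled to a common depth) are used here on the TMM-normalized library size.

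As a whole the family took more of the RNA at Day 6. Its summed level was 486, 510 and 493 CPM in the Day 6 libraries, against 96.4 and 245 CPM in L4 replicates 1 and 2. Every Day 6 library was above both L4 libraries, and the 2 L4 libraries differed by more than the 3 Day 6 libraries did. Without normalization the same members made up 0.0501%, 0.0830% and 0.0618% of all counts at Day 6 (95% Wilson intervals 0.0493 to 0.0510, 0.0815 to 0.0846 and 0.0605 to 0.0631), against 0.00283% and 0.0395% at L4 (0.00257 to 0.00312 and 0.0383 to 0.0408). The intervals cover counting error only. With 3 against 2 libraries an exact permutation test cannot go below a two-sided p of 0.1, so no test of this sum is given.

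More members were also detected at Day 6. At least 1 count was found for 170, 178 and 151 members in the Day 6 libraries, against 63 and 124 in the L4 libraries. Of all 19176 features, 16113, 16634 and 15251 had a count at Day 6, against 12442 and 14706 at L4. Detection was thus higher at Day 6 over all features too. Numbers at matched depth are given for the members only. At the depth of the smallest library, 151, 173 and 146 members would be expected to have a count at Day 6, against 56.8 and 124 at L4. These figures match total counts. On the TMM-normalized depth L4 replicate 1 is the smallest library, and at its depth 130, 145 and 129 members would be expected at Day 6, against 63 and 106 at L4. No library held a count for 15 of the 204 members.

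**Figure D1:**
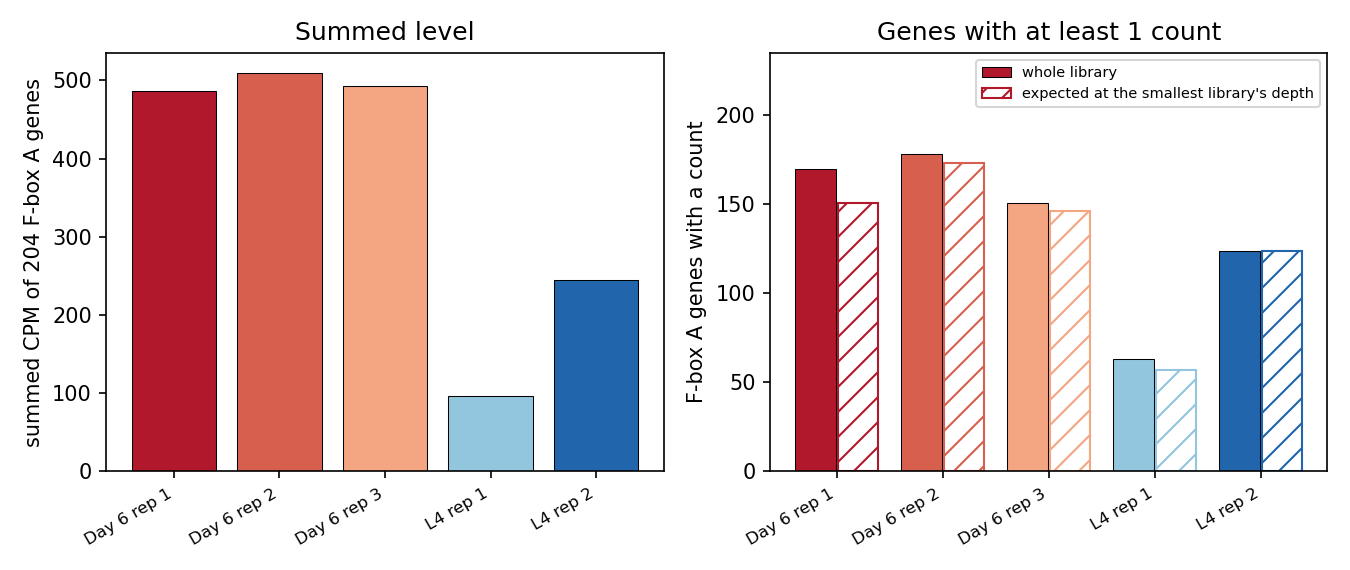
Left, summed CPM of the 204 F-box A genes in each library. Right, number of these genes with at least 1 count, in the whole library (filled) and the number expected at the depth of the smallest library (hatched). The 3 Day 6 libraries stand above both L4 libraries in each panel, and L4 replicate 1 is the lowest with 96.4 CPM and 63 genes.

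Genes were tested one by one with the edgeR quasi-likelihood test over all 12758 genes that passed a filter on low counts, at a Benjamini-Hochberg adjusted p under 0.05. Of the 204 members, 101 passed the filter. Among them 22 rose and 0 fell at Day 6, and 79 were not called. The share that rose was 21.8%, where 14.3% of all tested genes rose and 12.5% of all tested genes fell. All 9 tested members with no L4 count were among the 22, and the other 13 rises had L4 counts. The share therefore rests in part on members that passed the filter through Day 6 alone. The same split over all tested genes is not given here. The median log2 fold change was 1.04 over the 101 members and 0.08 over all tested genes. At an unadjusted p under 0.05, edgeR had 36 members higher and 4 lower at Day 6. Such counts over all tested genes are not given here, so this split has no background beside it. The DESeq2 test called 28 higher and 4 lower (18.0% and 21.7% of all tested genes), and limma-voom 28 higher and 2 lower (16.8% and 12.4%). Ranges of CPM did not overlap for 48 of the 101 members with Day 6 above L4 (47.5%, against 35.4% of all tested genes) and for 6 with Day 6 below L4 (5.94%, against 23.4%).

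The members that passed the filter are not a fair sample of the family. A gene with counts in the Day 6 libraries alone passes once these are high enough, and 9 of the 22 rises had no count at all in either L4 library. Of the 88 members that had counts but did not pass, 51 had counts at Day 6 alone, 2 at L4 alone and 35 in both groups, with at most 52 counts in total. Day 6 pooled more libraries and more counts than L4, so counts at Day 6 alone were easier to find. Split by mean CPM over the 5 libraries, 6 of 8 members at 10 CPM or more rose (against 17.3% of all tested genes at that level), 8 of 56 members between 1 and 10 CPM (14.3%, against 10.2%) and 8 of 37 members below 1 CPM (21.6%, against 16.7%).

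**Figure D2:**
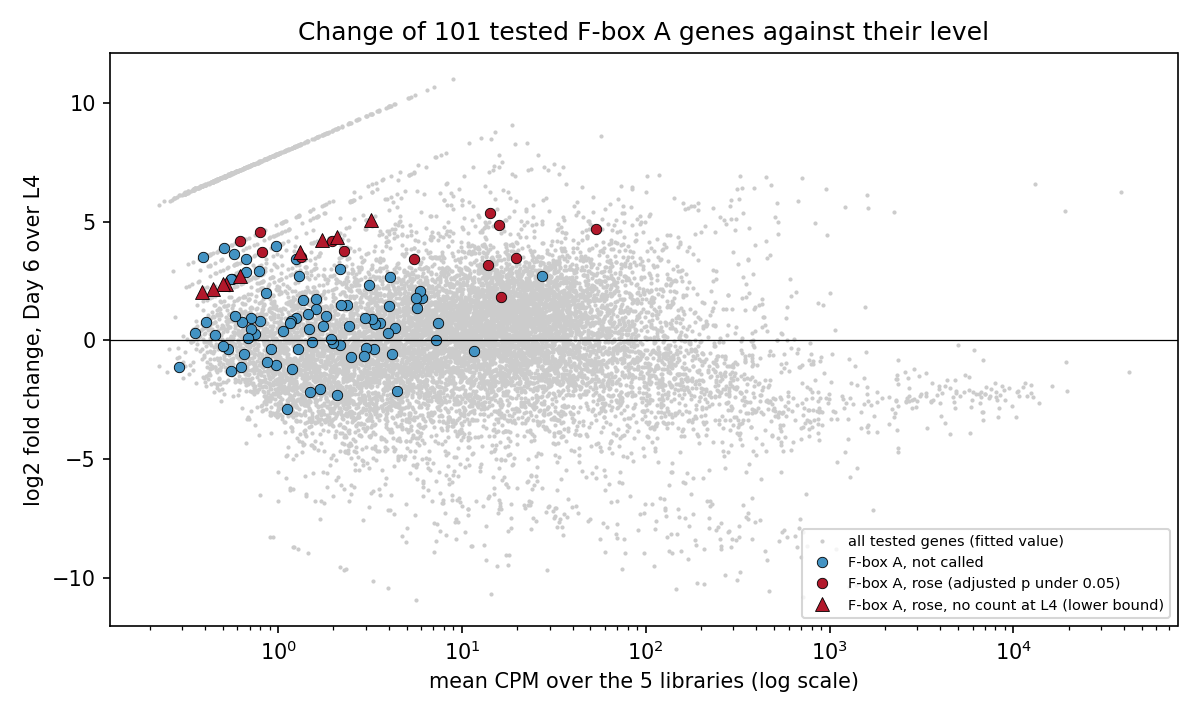
Fitted log2 fold change, Day 6 over L4, against mean CPM over the 5 libraries (log scale) for all 12758 tested genes (grey) and the 101 tested F-box A genes, with the 22 that rose in red. Triangles are the 9 rises with no L4 count, drawn at their lower bound, whereas grey points with no L4 count keep their fitted value. No red point lies below 0, and 6 of the 8 members at 10 CPM or more are red.

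The call depended on the libraries used. With L4 replicate 1 left out, 131 members were tested, 33 rose (25.2%, against 26.0% of all tested genes) and 9 fell (6.87%, against 24.1%). All 22 rises were called again, but the share that rose was then no higher than the background. With L4 replicate 2 left out, 41 of 117 members rose (35.0%, against 36.5%) and 1 fell (0.855%, against 24.2%), and 16 of the 22 rises were called again, without fbxa-43, fbxa-50, fbxa-66, fbxa-97, fbxa-164 and fbxa-181. In these fits the single L4 library was taken to have the spread of the Day 6 libraries. Without Day 6 replicate 1, 2 of 98 members rose (2.04%, against 2.12% of all tested genes), without Day 6 replicate 2, 6 of 84 (7.14%, against 3.99%), and without Day 6 replicate 3, 3 of 89 (3.37%, against 1.94%). fbxa-107 and fbxa-215 were called in all 5 of these fits.

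RNA of the same replicate had been prepared together, but replicate numbers in the sample titles and in the library names disagree for L4. With the title numbers as a block, edgeR called 9 rises (8.91%, against 6.4% of all tested genes) and 0 falls (against 5.06%). The rises were 8 of the 22 (fbxa-107, fbxa-108, fbxa-163, fbxa-170, fbxa-200, fbxa-210, fbxa-215 and fbxa-217) and fbxa-60. With the library-name numbers as a block, 4 rises were left (3.96%, against 3.23%), namely fbxa-107, fbxa-163, fbxa-170 and fbxa-215.

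The distance from Day 6 was not the same for the 2 L4 libraries. Over the 101 tested members the median log2 difference, with 0.1 added to CPM, was 2.79 between the Day 6 mean and L4 replicate 1, and 0.62 between the Day 6 mean and L4 replicate 2. Over all tested genes these differences were 0.86 and 0.07, and over 3793 other genes with exons of 900 to 1500 bases, the window that held 77.0% of the members, they were 0.40 and −0.15. L4 replicate 1 lay below every Day 6 library in 82 of the 101 members (81.2%, against 55.7% of all tested genes), and L4 replicate 2 did so in 51 (50.5%, against 44.9%). L4 replicate 2 lay above every Day 6 library in 26 members (25.7%, against 41.7%). No count was found in L4 replicate 1 for 47 of the 101. What sets L4 replicate 1 apart was not tested.

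A few genes carried about as many counts as all the others at Day 6. The 7 members of highest level held 52.4%, 48.4% and 52.7% of the family's counts in the Day 6 libraries. A mean above 10 CPM was reached by 8 members at Day 6 and by 1 at L4, and a mean above 1 CPM by 68 members at Day 6 and 48 at L4. None of the 7 has a known substrate in the sources used here.

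The highest of them was fbxa-215 (WBGene00012879, chromosome IV, 13665364 to 13666909, minus strand), which encodes a protein with an F-box and an FTH domain. Its level was 85.1, 84.0 and 93.9 CPM in the Day 6 libraries, against 1.41 and 5.09 CPM in the L4 libraries. These groups are far apart, and this 1 gene made up 16.5% to 19.1% of the family's counts in each Day 6 library. Its log2 fold change was 4.68 ± 0.72 (SE, edgeR adjusted p = 0.00596). Per kilobase of exon it averaged 65.2 CPM at Day 6 and 2.41 CPM at L4.

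Next per kilobase at Day 6 was fbxa-60 (WBGene00020456, chromosome III, 944733 to 946300, minus strand), also with both domains. It had 35.8, 43.4 and 44.9 CPM at Day 6, against 0.938 and 11.2 CPM at L4. The groups did not overlap, but the L4 libraries differed by more than 10 CPM, and the gene was not called with all libraries by edgeR (log2 fold change 2.71 ± 0.90, adjusted p = 0.0600), whereas DESeq2 (adjusted p = 0.00508) and limma-voom (adjusted p = 0.0325) called it. By edgeR it was called without L4 replicate 1 at 1.96 (adjusted p = 0.00109) and without L4 replicate 2 at 5.46 (adjusted p = 3.5e-06).

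fbxa-210 and fbxa-107 are neighbors on the plus strand of chromosome V, at 18125375 to 18127205 and 18123939 to 18125235, and both encode an F-box and an FTH domain. fbxa-210 had 34.8, 28.2 and 30.3 CPM at Day 6, against 2.34 and 3.10 CPM at L4, a log2 fold change of 3.49 ± 0.55 (SE, edgeR adjusted p = 0.00646). fbxa-107 had 17.2, 25.6 and 27.2 CPM at Day 6, against 0.703 and 0.462 CPM at L4. In both genes the 2 L4 libraries lay close together, and fbxa-107 had the lowest adjusted p of the family, at a log2 fold change of 5.39 ± 0.69 (SE, edgeR adjusted p = 0.00416).

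fbxa-163 (chromosome II, 1609252 to 1610730, minus strand) had 31.3, 25.4 and 20.6 CPM at Day 6, against 2.11 and 0.0661 CPM at L4. Here it was L4 replicate 2 that had almost none, with 1 count, while L4 replicate 1 had 9. The log2 fold change was 4.88 ± 1.20 (SE, edgeR adjusted p = 0.0244).

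The other 2 genes at this level had both L4 libraries well above 0. fbxa-95 (chromosome V, 15571476 to 15572715), for which the files give an F-box and no FTH domain, had 24.7, 16.7 and 22.7 CPM at Day 6, against 3.52 and 1.45 CPM at L4 (log2 fold change 3.16 ± 0.66, edgeR adjusted p = 0.0147). fbxa-101 (chromosome I, 12958640 to 12959932), with an FTH domain and no F-box in the files, had 25.8, 23.1 and 20.0 CPM at Day 6, against 7.03 and 5.88 CPM at L4. Its change was the smallest of the rises with L4 counts, 1.83 ± 0.51 on the log2 scale (edgeR adjusted p = 0.0350). It was not called with median-ratio factors (edgeR adjusted p = 0.0534) or upper-quartile scaling (edgeR adjusted p = 0.0574). Nor was it called with the replicate block by title or by library-name numbers (edgeR adjusted p = 0.232 and 0.405). Per kilobase, fbxa-210, fbxa-107, fbxa-95, fbxa-163 and fbxa-101 lay between 20.2 and 23.5 CPM at Day 6, closer together than the spread between libraries of single genes among them.

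At L4 the order was another one. The highest member there was fbxa-115 (chromosome V, 20190535 to 20192152, minus strand), which carries both domains. It had 12.5, 9.03 and 8.56 CPM at Day 6, against 16.4 and 11.4 CPM at L4. The groups overlapped, and the gene was not called (log2 fold change −0.47 ± 0.51, edgeR adjusted p = 0.507). On library size alone the sign turned, to 0.14. It held 70 of the family's 411 counts in L4 replicate 1 and 173 of 3703 in L4 replicate 2.

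**Figure D3:**
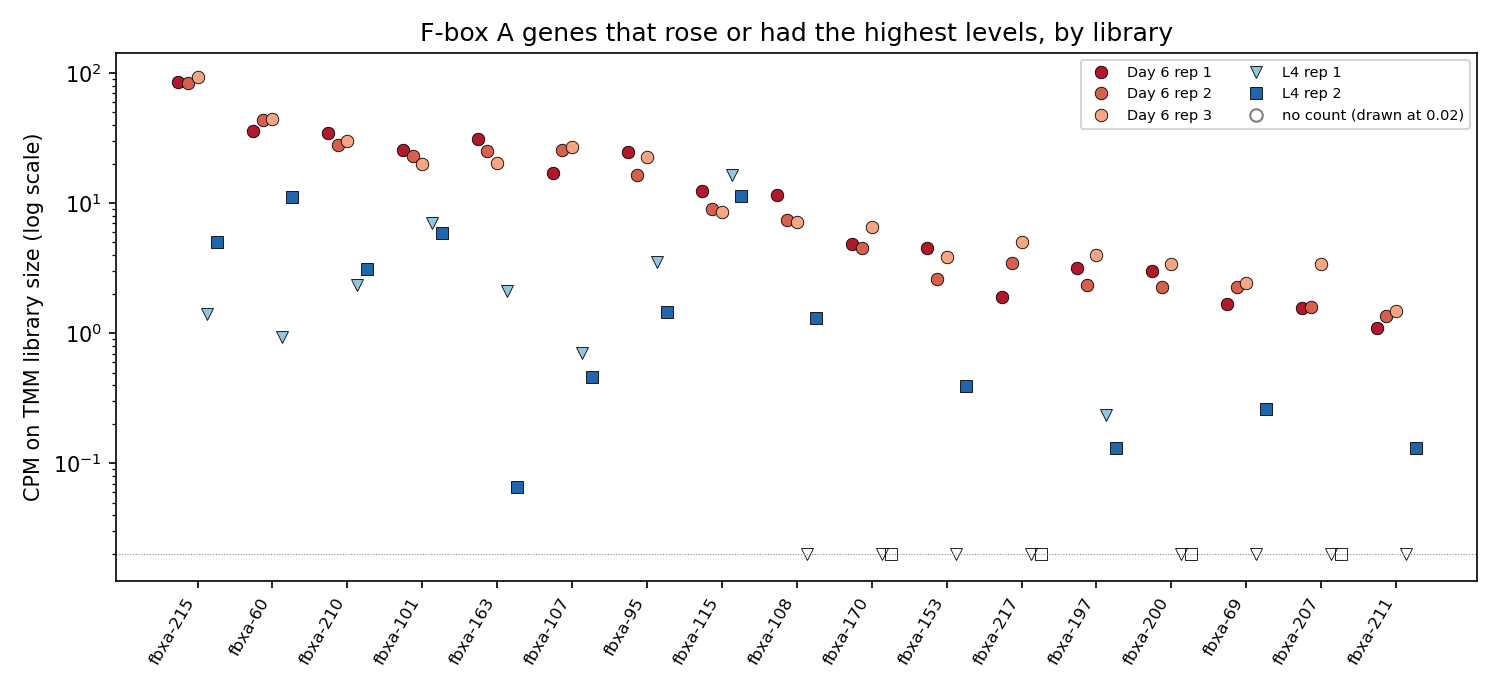
CPM (log scale) in each of the 5 libraries for 17 F-box A genes, the 15 highest of those that rose plus fbxa-60 and fbxa-115, with circles for Day 6 and triangles and squares for L4. Open symbols stand for no count. In the 15 that rose every Day 6 library lies above both L4 libraries, fbxa-60 shows L4 libraries more than 10 CPM apart, and fbxa-115 overlaps between the groups.

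Of the 9 rises with more than 3 counts at L4, the 3 of lowest level had counts in L4 replicate 2 and none in L4 replicate 1. fbxa-108 (chromosome V) had 348, 157 and 120 counts at Day 6, against 0 and 20 at L4, a log2 fold change of 3.44 ± 1.02 (edgeR adjusted p = 0.0429). fbxa-153 (chromosome V) had 138, 56 and 65 counts at Day 6, against 0 and 6 at L4 (3.79 ± 1.05, edgeR adjusted p = 0.0347). fbxa-69 (chromosome V) had 51, 48 and 41 counts at Day 6, against 0 and 4 at L4, and was the rise nearest the threshold (3.52 ± 1.08, edgeR adjusted p = 0.0462). All 3 encode both domains.

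For genes with almost no count at L4 the fitted change depends on the method, so a bound or a ratio with its counting interval is given. The bounds set L4 at a floor of 3 counts over the group. fbxa-170 (chromosome X, 1676205 to 1678121), with both domains, had 147, 96 and 111 counts at Day 6 and none in either L4 library, so it was at least 33.5-fold higher at Day 6 (edgeR adjusted p = 0.00732). The other 8 rises with no L4 count were at least 4.08-fold to 20.5-fold higher, and all had counts in each Day 6 library.

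Pseudogenes were among them. The pseudogenes fbxa-217 (chromosome I), fbxa-200 (chromosome II) and fbxa-207 (chromosome V) had 57, 74 and 85, 91, 48 and 57, and 47, 34 and 57 counts in Day 6 replicates 1, 2 and 3, and none at L4. They were at least 20.5-fold, 18.6-fold and 13.1-fold higher at Day 6 (edgeR adjusted p = 0.0136, 0.0122 and 0.0188). The exons of fbxa-207 overlap those of another gene, so its counts are uncertain, and it was the only rise with such an overlap. fbxa-181 (chromosome V), a coding gene with both domains, had 26, 29 and 15 counts at Day 6 and none at L4, at least 6.63-fold higher (edgeR adjusted p = 0.0289).

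In 4 rises there were 1 to 3 counts at L4. fbxa-197 (chromosome V), with an FTH domain and no F-box, had 96, 50 and 67 counts at Day 6, against 1 and 2 at L4, a ratio of 20.2 (exact 95% interval 6.81 to 98.7, counting error only, edgeR adjusted p = 0.0196). fbxa-211, the neighbor of fbxa-210, had 33, 29 and 25 counts at Day 6, against 0 and 2 at L4, a ratio of 12.4 (3.32 to 104, edgeR adjusted p = 0.0456). The others were the pseudogenes fbxa-123 and fbxa-97, each with 1 count at L4. The remaining rises, fbxa-43, fbxa-50, fbxa-66 and fbxa-164, had no count at L4 and at most 22 counts in any Day 6 library.

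The 2 members with a described role in the intracellular pathogen response were not among the rises. fbxa-158 had 31, 43 and 23 counts at Day 6, against 0 and 22 at L4, so the groups overlapped in CPM (log2 fold change 0.81 ± 1.12, edgeR adjusted p = 0.604). The value rested on 1 library, being 0.10 without L4 replicate 1, while without L4 replicate 2, which held its only L4 counts, the gene was called higher (edgeR adjusted p = 0.0237). fbxa-75 had 3, 4 and 2 counts at Day 6 and none at L4, too few to be tested, and no difference was detectable at this depth. Their partner cul-6 had 118, 109 and 47 counts at Day 6, against 0 and 77 at L4 (0.54 ± 1.16, edgeR adjusted p = 0.747).

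No member was called lower at Day 6 by the main edgeR fit with all libraries, whereas DESeq2 called 4 lower and limma-voom 2. Some members were higher in L4 replicate 2 than in every Day 6 library. The 9 that fell when L4 replicate 1 was left out were fbxa-72, fbxa-51, fbxa-202, fbxa-6, fbxa-31, fbxa-124, fbxa-84, fbxa-196 and fbxa-125, which are named after their values were seen. Their log2 fold changes in that fit lay between −4.71 and −1.44. All 9 were lower in L4 replicate 1 than in L4 replicate 2, and 4 had no count in L4 replicate 1.

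The member of highest level among these was fbxa-72 (chromosome V, 674886 to 676753). It had 1.76, 3.01 and 0.892 CPM at Day 6, against 6.10 and 10.5 CPM at L4, so that both L4 libraries lay above every Day 6 library. Its log2 fold change was −2.14 with all libraries (edgeR adjusted p = 0.0570) and −2.38 without L4 replicate 1 (edgeR adjusted p = 0.00829). fbxa-202 (chromosome V) had 6, 15 and 27 counts at Day 6, against 0 and 120 at L4, so here L4 replicate 2 alone stood apart.

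Only 2 members had at least 10 counts at L4 and none at Day 6, and both had them in L4 replicate 2 alone. fbxa-201 (chromosome V) had 0 and 11 counts at L4, and the pseudogene fbxa-223 (chromosome V) had 0 and 10. Against a floor of 3 counts over the Day 6 libraries they were at least 12.9-fold and 11.7-fold higher in L4. By the same minimum, 32 members had counts at Day 6 and none at L4. Day 6 pooled 3 libraries and more counts than the 2 libraries at L4, so this minimum was easier to reach at Day 6. The share of all features seen in a single group is not given here.

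**Figure D4:**
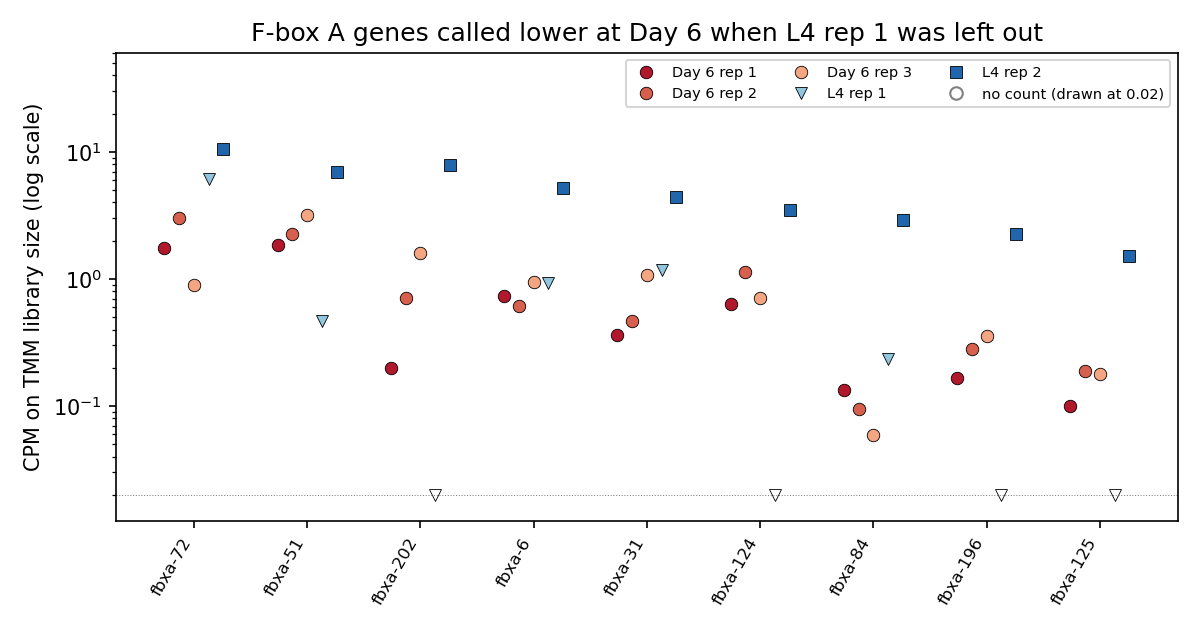
CPM (log scale) by library for the 9 F-box A genes called lower at Day 6 when L4 replicate 1 was left out, with open symbols for no count. L4 replicate 2 is the highest library in all 9, and L4 replicate 1 is below it in each, with no count in 4.

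F-box A genes often sit side by side. Members of the family no more than 20 kilobases apart formed 12 runs of at least 4 genes, which held 108 of the 204 members. Of the 22 rises, 11 lay in such runs and 11 were among the 47 tested members outside them. Neighbors did not share one pattern in every run. Reads could not be traced to one of several alike genes here, since the treatment of reads that match several places is not given in the sources used here.

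On chromosome V, from 18123939 to 18136022, the 4 neighbors fbxa-107, fbxa-210, fbxa-211 and fbxa-212 all had higher counts in every Day 6 library than in either L4 library. The first 3 rose. fbxa-212 had 18, 11 and 26 counts at Day 6, against 1 and 0 at L4, and was not called (log2 fold change 3.64 ± 1.58, edgeR adjusted p = 0.121).

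On chromosome II, from 1606595 to 1621280, 7 members follow each other on the minus strand. fbxa-163 stood far above the rest at Day 6, fbxa-164 also rose, and fbxa-161, fbxa-162 and fbxa-165 had 9 to 30 counts in each Day 6 library and at most 2 in an L4 library. At the end of the run the picture was another one. fbxa-166 had 13, 13 and 17 counts at Day 6, against 7 and 18 at L4, with CPM higher in both L4 libraries (log2 fold change −1.03 ± 0.82, edgeR adjusted p = 0.364), and fbxa-158 overlapped between the groups as above.

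On chromosome III, which held 70 members, 3 of 37 tested members rose, where 14.3% of all tested genes rose. The largest run there, from 1236015 to 1349450, had 31 members, of which 18 were tested and fbxa-50 rose. In the run from 933422 to 963833, the 8 tested members were not called, among them fbxa-60 and its neighbor fbxa-59, which had 9.55, 8.80 and 8.20 CPM at Day 6, against 1.17 and 9.18 CPM at L4 (log2 fold change 0.72 ± 0.80, edgeR adjusted p = 0.512). On chromosome V, 10 of 34 tested members rose. Whether chromosomes differ was not tested.

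**Figure D5:**
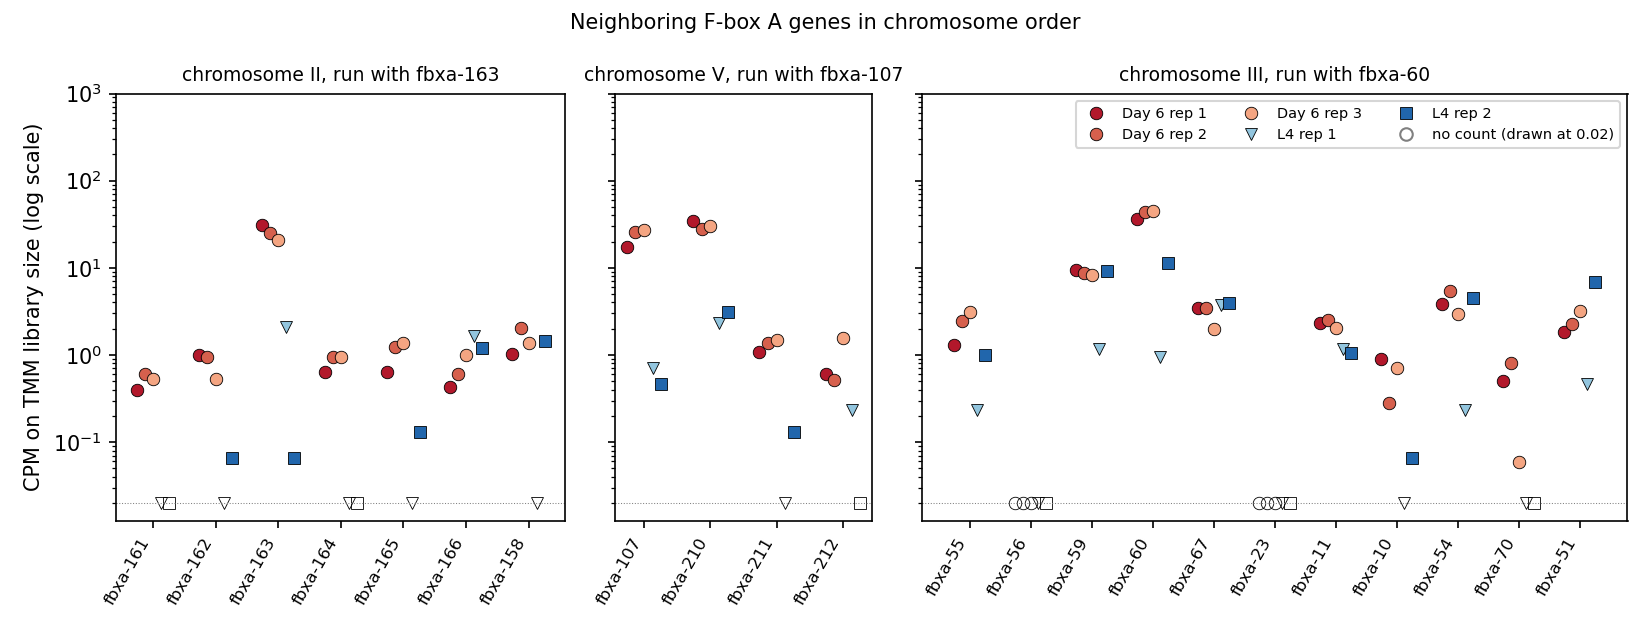
CPM (log scale) by library for 3 runs of neighboring F-box A genes in chromosome order, on chromosomes II (7 genes), V (4) and III (11), with open symbols for no count. fbxa-163 stands alone at the top of its run, the 4 genes on chromosome V all lie higher at Day 6, and on chromosome III L4 replicate 2 lies near the Day 6 libraries for fbxa-59, fbxa-67 and fbxa-54.

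Rises were found in each class of member, beside 14.3% of all tested genes that rose. Differences between classes were not tested. They were 17 of 87 tested coding genes and 5 of 14 tested pseudogenes. By domain they were 14 of 70 tested members with an F-box and an FTH domain, 1 of 5 with the F-box alone, 3 of 11 with the FTH domain alone and 4 of 15 with neither. By strand they were 9 of 41 on plus and 13 of 60 on minus. The 5 pseudogene rises, which include all 4 with neither domain, had at most 1 count at L4. Of the 22 rises, 9 had no L4 count and passed the filter through Day 6 alone, which limits all these shares. The summed exons of the 22 rises were 901 to 1633 bases long, and with each library corrected for its length trend, all 22 were called again, among 25 rises (24.8%, against 13.7% of all tested genes) and 2 falls (1.98%, against 18.2%).

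Most described F-box proteins act within an SCF ligase, whose other parts were measured in the same libraries. Of 41 genes of the SCF core and its regulators, all tested, 10 rose at Day 6 (24.4%, against 14.3% of all tested genes) and the others were not called, with a median log2 fold change of 1.00. No L4 count was found for 4 of these 10, which passed the filter through Day 6 alone. Without L4 replicate 1, 21 rose (against 26.0% of all tested genes) and 1 fell. The shared cullin and the main adaptors were not called with all libraries. The cullin cul-1 had 59.3, 37.3 and 44.6 CPM at Day 6, against 26.0 and 26.6 CPM at L4 (log2 fold change 0.84 ± 0.47, edgeR adjusted p = 0.212). It was called without L4 replicate 1 (0.90, edgeR adjusted p = 0.0482), and its sign turned with the exon-length trend removed (−0.32). skr-1, the main SKP1-related adaptor, had 160, 135 and 144 CPM at Day 6, against 365 and 99.4 CPM at L4 (−0.66 ± 0.66, edgeR adjusted p = 0.468). Its direction depended on the L4 library, at 0.64 without L4 replicate 1 and −1.31 without L4 replicate 2 (edgeR adjusted p = 0.15 and 0.00584), and on library size alone it was 0.49. Its close relative skr-2 had 4894, 2321 and 2774 counts at Day 6, against 320 and 337 counts at L4 (1.59 ± 0.67, edgeR adjusted p = 0.114), and was called without L4 replicate 1 (2.78, edgeR adjusted p = 0.000813).

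What rose in this list were other SKP1-related genes, skr-7 to skr-15, and rfl-1, which encodes a subunit of the enzyme that activates the ubiquitin-like protein NED8. skr-7 had 1885, 580 and 836 counts at Day 6, against 2 and 3 at L4, a log2 fold change of 7.33 ± 0.85 (edgeR adjusted p = 0.00362). skr-12 had 505, 310 and 299 counts at Day 6, against 2 and 10 at L4 (4.78 ± 0.65, edgeR adjusted p = 0.00452), and skr-15 had 442, 243 and 309 counts at Day 6 and none at L4, at least 94.2-fold higher (edgeR adjusted p = 0.00410). Several skr genes are alike in sequence, so their counts may be shared. rfl-1 rose by 2.09 ± 0.56 on the log2 scale (edgeR adjusted p = 0.0313), and its exons overlap those of cyk-1 on the other strand. It was not called with the replicate block by title or by library-name numbers (edgeR adjusted p = 0.139 and 0.254).

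F-box genes outside the numbered families were also measured. Of 8, 5 rose and 1 fell at Day 6, where 14.3% of all tested genes rose and 12.5% fell. The median log2 fold change was 1.89, against 0.08 over all tested genes. fog-2, an F-box and FTH gene needed for sperm production in hermaphrodites, had 19.3, 15.1 and 18.6 CPM at Day 6, against 1.64 and 5.62 CPM at L4 (2.23 ± 0.67, edgeR adjusted p = 0.0434). It was not called with upper-quartile scaling (edgeR adjusted p = 0.0559) or with the replicate block by title or by library-name numbers (edgeR adjusted p = 0.165 and 0.261). Its relative ftr-1 rose, as did fsn-1, which acts in synapse formation (2.84 ± 0.62, edgeR adjusted p = 0.0169), prom-1, needed for meiotic chromosome pairing (4.99 ± 0.74, edgeR adjusted p = 0.00558), and mec-15, which acts in touch receptor neurons (1.55 ± 0.48, edgeR adjusted p = 0.0471). mec-15 was not called by DESeq2 (adjusted p = 0.0668). dre-1, an F-box gene of developmental timing and molting, fell to 12.2, 9.03 and 8.56 CPM at Day 6, against 29.8 and 66.7 CPM at L4 (−2.28 ± 0.53, edgeR adjusted p = 0.0201).

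Other large families of substrate receptors are given by their counts, beside 14.3% of all tested genes that rose. In the F-box B family 15 of 21 tested members rose and in the F-box C family 12 of 20, and the rest were not called. No L4 count was found for 14 of these 15 and 6 of these 12, which passed the filter through Day 6 alone. With genes that had no L4 count set at their bound, the median log2 fold changes were 2.77 and 3.01. The BATH genes, which encode substrate adaptors of another cullin, had 18 rises among 31 tested, 7 of them with no L4 count, and a median of 2.50 by the same measure, and the MATH genes had 1 rise and 1 fall among 16 and a median of −0.50. The filter kept 21 of 110 F-box B genes and 20 of 46 F-box C genes, against 101 of 204 F-box A genes, and the difference between families was not tested. In the intracellular pathogen response list, which includes fbxa-75 and fbxa-158, 2 of 23 tested genes rose (eol-1 and pals-4, 8.7%, against 14.3% of all tested genes) and the others were not called, with a median log2 fold change of 0.55.

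Markers of some cell types moved between the groups beside these changes, where 14.3% of all tested genes rose and 12.5% fell. Of 12 germline and oocyte markers 11 rose, and their summed level was 2715 to 5573 CPM at Day 6 and 228 to 363 CPM at L4, with no marker of the list at 0. All 6 tested sperm markers fell, with sums of 8.42 to 28.2 CPM at Day 6 and 181 to 198 CPM at L4. Of 8 markers each, 4 fell in intestine and 4 in body wall muscle, and 2 of 10 fell in neurons and 3 of 7 in epidermis, where 1 rose. None of 5 tested pharynx markers was called. Markers of young embryos summed to 2.12 to 2.91 CPM at Day 6 and 0 to 2.11 CPM at L4. The part of the germline or any other tissue in the rise of F-box A genes was not tested.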

How the data were processed

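RNA of whole worms was sequenced by the authors as single reads after rRNA depletion and strand-specific cDNA synthesis, aligned to WormBase WS254 with TopHat2 and counted with featureCounts. Versions, the strand setting and the treatment of reads matching several genes are not given in the sources used here. The deposited files hold raw counts per gene, with nothing normalized. Members were found by symbol (174 by WormBase ID, 30 by locus tag), and placed and measured on the Ensembl annotation of WBcel235.

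Day 6 was compared with L4 with edgeR 4.0.16 in R 4.3.3 (TMM, quasi-likelihood, filterByExpr with minimum count 10 and minimum total 15, Benjamini-Hochberg adjustment over 12758 genes, called under 0.05). Standard errors are those implied by the test. The alternatives used DESeq2 1.42.0, limma 3.58.1, other scalings and filters, exon-length correction by lowess (span 0.3), replicate blocks and each library left out. The test was also tested on simulated data. The members and lists were chosen with earlier results of these data known. Genes named were the 15 highest rises, the 8 highest levels per kilobase, the 2 members of known role, those with at least 10 counts in 1 group only, and leading genes of each list. Others were named after their values were seen. Replicate numbers could not be settled as pairs: correlations of deviations were 0.34 and 0.27 by title and −0.27 and 0.13 by library name, over 2 pairs each.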

Additional observations from a re-analysis of the deposited data

How the results depend on the processing

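The median log2 fold change of the tested F-box A genes was positive in all 16 alternatives, and of the 19 tested members named by rule only fbxa-115, not called in any of them, changed sign (−0.47, against 0.14 with library size alone and 0.03 with the exon-length trend removed and L4 replicate 1 left out). Its 1.04 became 1.86 with no filter and lay between 0.86 and 5.83 with 1 library left out. The 22 rises became 0 with library size alone, 9 and 4 with the replicate block by title and by library-name numbers, and 34 with the exon-length trend removed and L4 replicate 1 left out, and with 1 library left out they lay between 2 and 41. The 0 falls became 1 with median-ratio factors, upper-quartile scaling or no filter, 2 with limma-voom or the exon-length trend removed, 4 with DESeq2, and 9 with the exon-length trend removed and L4 replicate 1 left out, and lay between 0 and 9 with 1 library left out. The scaling moved the median of all genes, 0.08, to −0.14 with median-ratio factors, −0.22 with upper-quartile scaling and 0.46 with library size alone. The cause of these changes was not tested. With upper-quartile scaling fbxa-69, fbxa-101, fbxa-108 and fbxa-211 were no longer called. Fewer samples enter the fits without a Day 6 library. With 2 L4 libraries that differ, 1 of them decides many values, and members of few counts could not be tested at this depth.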
